A study of Mus musculus with 6 samples.

Results

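Cytosolic ribosomal protein genes encode the proteins that, together with ribosomal RNA, build the large and the small subunit of the ribosome. They were taken by gene symbol (Rpl or Rps followed by a number and at most 1 letter of a, x, y or l, with Rplp0, Rplp1, Rplp2 and Rpsa), and names marked as pseudogenes were left out. This gave 81 of the 20914 genes in the count table, 50 of the large and 31 of the small subunit. The reference annotation (GENCODE M21, GRCm38) lists 79 of them as protein coding and 2, Rpl6l and Rpl32l, as processed pseudogenes. The members lay on 19 chromosomes, with 14 on chromosome 7.

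The 6 libraries were made from mouse liver RNA, with 3 in a PBS group and 3 in a DOX group. Their shared labels are the genotype BucheKI/KI-Hep, the terms CKI-Alb-Cre and S10D, and BDL treatment, so both groups share the knock-in, the Cre and the treatment. Alb-Cre places the recombinase under the albumin promoter, which is active in hepatocytes, and the design text speaks of butyrylcholinesterase overexpression there. BDL, DOX and S10D are not spelled out. No age or sex is stated. Nothing says that each library is a different animal, and the spread behind the p-values is that among libraries, which can be technical.

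Ribosomes hold their proteins in fixed numbers, and cells make the many mRNAs involved at high and similar levels. Most of these mRNAs begin with a 5′ terminal oligopyrimidine (TOP) tract, a C followed by a run of C and T, through which the mTOR kinase and the protein LARP1 control their translation and stability. Hepatocytes, which export large amounts of plasma protein, hold many ribosomes.

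The start-site sequences are shown because TOP tracts are the feature that ribosomal protein mRNAs are best known to share. RefSeq (GRCm38.p6) start sites were matched for 60 of the 81 members. Each line gives 30 bases, 15 before and 15 from the annotated start on, and capitals mark the longest run of C and T that begins with a C within 5 bases of that start. Rps6 and Rpl35a show typical tracts, and the others are among the members on which the results turn. Rplp1 and Rps27a, also among these, had no matched start and are not shown.
Rps6: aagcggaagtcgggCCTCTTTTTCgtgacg
Rpl35a: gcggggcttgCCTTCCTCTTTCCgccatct
Rplp2: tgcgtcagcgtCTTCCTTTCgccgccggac
Rpl12: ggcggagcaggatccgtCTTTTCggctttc
Rplp0: gtcttcgggtttcgaggaCCgcctggttct
Rps12: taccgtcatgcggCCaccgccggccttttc
Rps27: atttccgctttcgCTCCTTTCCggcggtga
Rps27l: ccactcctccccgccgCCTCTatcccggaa
These windows lie at chr4:86857353-86857382 (minus strand), chr16:33056467-33056496 (plus), chr7:141447636-141447665 (plus), chr2:32961697-32961726 (plus), chr5:115559452-115559481 (plus), chr10:23787195-23787224 (minus), chr3:90213634-90213663 (minus) and chr9:66946071-66946100 (plus), in the order of the lines. A run of at least 5 bases was found for 29 of the 60 members (48.3%), against 23.4% of the 15740 genes of the table with a listed start. It was found for 17 of 37 large and 12 of 23 small subunit genes. Annotated starts can miss the used start by several bases, so a short run here says only that no longer run begins within 5 bases of the annotated start. Runs that begin farther off are not marked or counted, such as the one that ends the Rps12 line. Among motifs searched on both strands over 300 bases (250 before the start, 50 after), the ETS core CCGGAAG was present for 25 members (41.7%, all genes 15%) and the YY1 core AAGATGG for 9 (15%, all genes 7.62%). The E-box CACGTG (6 members, 10%, all genes 10%) and the TATA box TATAAA (7 members, 11.7%, all genes 11.4%) were about as frequent as in all genes. A palindrome searched in the same way, whose letters are not given here, was present for 6 members (10%, all genes 0.864%). The ETS and YY1 cores can share the letters AAG. Members with a run of at least 5 had a median log2 fold change (DOX over PBS) of 0.27 (28 tested) and those without one of 0.28 (29 tested), and with and without the ETS core it was 0.27 (24 tested) and 0.28 (33 tested).

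Total counts were 32826493 to 41102844 per library. In the check of the labels, Bche, the butyrylcholinesterase gene, stood at 193 to 245 CPM (counts relative to the TMM-scaled library total) in PBS and 448 to 969 in DOX, with no overlap (log2 fold change 1.67, SE 0.27, edgeR quasi-likelihood adjusted p = 0.106). DESeq2 gave Bche an adjusted p of 2.9e-08. DOX replicate 3 stands apart for the members, as it held the highest CPM in 78 of 78 tested members, while PBS replicate 1 held the lowest in 72. The share of Alb, the albumin gene, was 10.1% in DOX replicate 1 and 10.2% in DOX replicate 3, against 4.87% to 6.09% elsewhere. TMM factors were 1.01 to 1.07 in PBS and 0.902 to 1.005 in DOX. In bulk RNA, fewer cells of a type and less RNA per cell cannot be told apart.

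Ribosomal protein mRNA stood slightly higher in the DOX libraries across both subunits, by a median of 1.20-fold, but no single gene passed the test. All 78 tested members had a positive log2 fold change, from 0.03 (Rps27) to 0.52 (Rplp1), with a median of 0.27. Of all 13725 genes tested, 47% were positive and the median was -0.02. Of the 222 other genes shorter than 1500 bases with a mean of at least 100 CPM, 73.9% were positive and the median was 0.13. The 3 members below the count filter, Rpl3l, Rpl32l and Rpl39l, had at most 7 counts in a library. By edgeR's quasi-likelihood test with Benjamini-Hochberg adjustment over all genes, 0 of the 78 passed an adjusted p of 0.05 (smallest adjusted p = 0.259), where 0.0291% of all genes did and 0.0219% did so as higher. DESeq2 called 1 member, Rplp1 (DESeq2 adjusted p = 0.0024), where it called 1.19% of genes, and limma-voom called 0. At an unadjusted p under 0.05, 30 of the 78 members were higher, where 5.03% of all genes were higher and 9.9% differed in either direction. That count was 3 without PBS replicate 1, 15 without PBS replicate 3, 9 without DOX replicate 3, 53 without DOX replicate 1, 4 by library size only and 3 on FPKM. The matching shares of all genes were not computed for these settings. All 3 DOX libraries lay above all 3 PBS libraries in 52 members (66.7%), where 7.84% of all genes did so, and 0 members lay wholly below, where 9.02% of genes did.

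**Figure D1:**
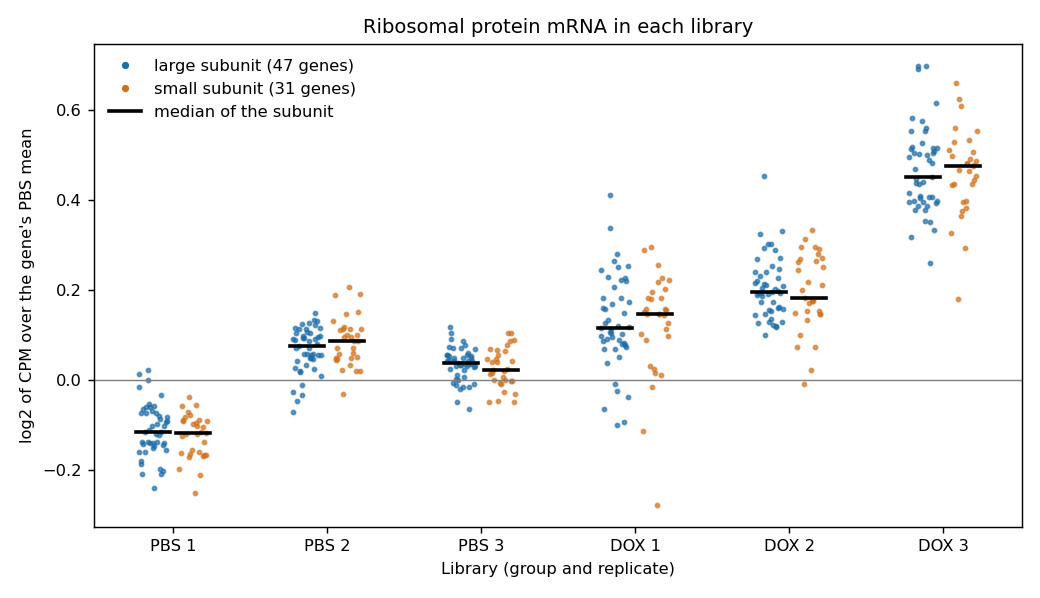
Each point is 1 of the 78 tested members in 1 library, as log2 of its CPM over its own mean in the 3 PBS libraries, with black bars for the median of each subunit. PBS 1 lies lowest and DOX 3 highest for nearly all members, and DOX 1 exceeds both PBS 2 and PBS 3 in 52 of the 78 members.

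The size of this difference depended on single libraries and on the scaling. Without DOX replicate 3 the median log2 fold change was 0.17, and 76 of 78 members were positive. Without DOX replicate 1 the median was 0.34. Without PBS replicate 1, the lowest library in 72 members, 3 members had an edgeR unadjusted p under 0.05, against 30 with all libraries. When scaled by library size only, the median of all genes moved to -0.15. The members' median was then 0.13, with 75 of 78 positive and 22 members without overlap, and the 3 negative ones were Rps27, Rps27a and Rps27l. The share of all genes without overlap was not computed under this scaling, so the 22 have no background to be read against. Relative to the median of all genes, the members stood 0.28 higher under both scalings and 0.17 higher without DOX replicate 3. The 26 members whose groups overlapped all did so through DOX replicate 1, which lay at or under the highest PBS library, and 6 of them also through DOX replicate 2.

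As a share of all counts, the members took 2.11%, 2.25% and 2.31% in PBS replicates 1 to 3 and 2.26%, 2.47% and 2.66% in DOX replicates 1 to 3. The 95% Wilson intervals, which cover counting error only, are narrow (2.10 to 2.11% in PBS replicate 1, 2.66 to 2.67% in DOX replicate 3). The means were 2.22% ± 0.105 and 2.46% ± 0.202 (SD, n = 3 each; exact two-sided permutation p = 0.2). DOX replicate 1 lay below PBS replicate 3, so the groups overlapped. With the counts of Alb left out, the shares were 2.35% ± 0.122 and 2.70% ± 0.236 without overlap (SD, n = 3 each; exact two-sided permutation p = 0.1, the smallest that 3 against 3 allow). Across the 3 libraries of a group, a member's CPM had a median coefficient of variation of 7.37% in PBS and 12.7% in DOX.

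The large and the small subunit moved together. Among the 47 tested large subunit genes the median log2 fold change was 0.26 (0.15 to 0.52), with 31 members without overlap, and among the 31 small subunit genes it was 0.28 (0.03 to 0.42), with 21. The mean log2 CPM of the large subunit was 7.73, 7.91 and 7.88 in PBS and 7.97, 8.05 and 8.31 in DOX. That of the small subunit was 7.83, 8.05 and 7.98 in PBS and 8.08, 8.15 and 8.42 in DOX. Within a library, where scaling cancels, the large subunit mean less the small one was -0.12 ± 0.02 under PBS and -0.11 ± 0.004 under DOX (log2, SD over 3 libraries). The ratio of summed counts was 1.44 to 1.48 in PBS and 1.46 to 1.48 in DOX. The difference between the subunits in response was -0.02 by medians and 0.01 by means (log2), which differ in sign, and the DOX ratios fell inside the range of the PBS ratios.

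**Figure D2:**
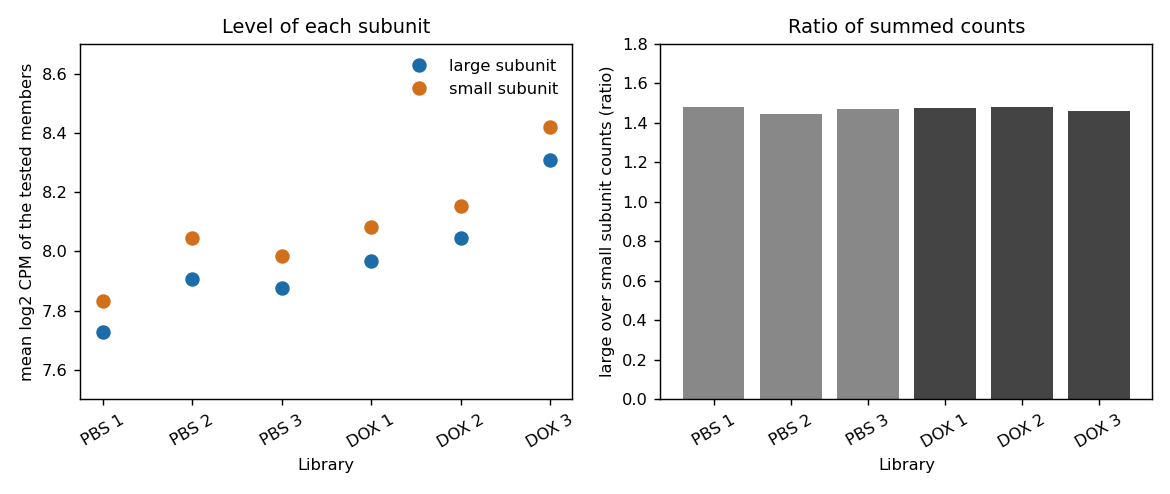
Left, the mean log2 CPM of the tested large (47) and small (31) subunit genes in each library; the axis does not start at 0. Right, the ratio of summed large to small subunit counts, which stayed between 1.44 and 1.48 in the 6 libraries.

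**Figure D3:**
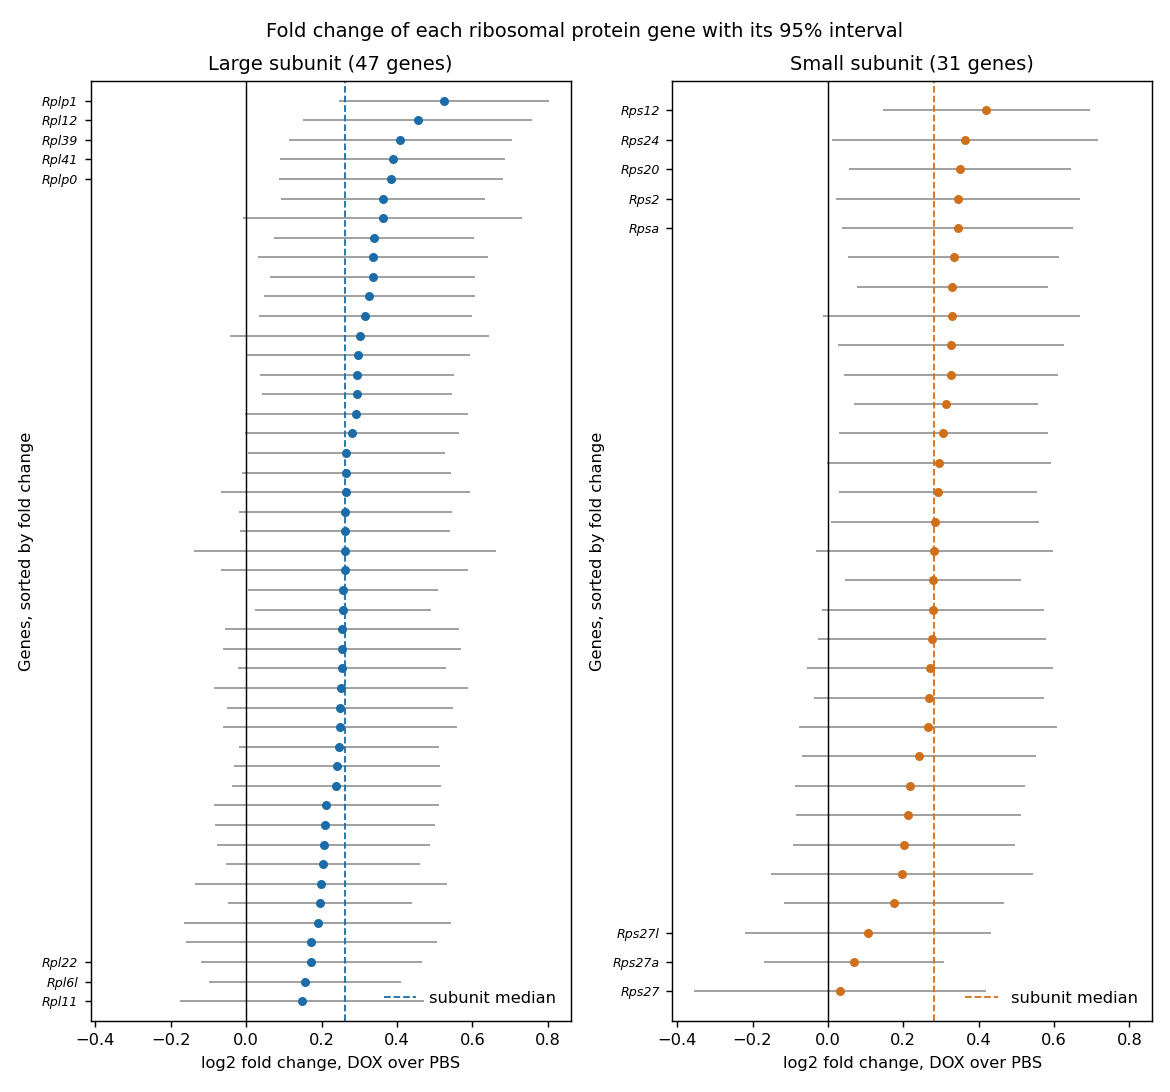
Points are log2 fold changes (DOX over PBS) of the 78 tested members by the quasi-likelihood fit, with 95% intervals, sorted within each subunit with the 5 highest and 3 lowest named, and dashed lines mark the subunit medians. All points lie right of 0, most intervals of neighbours overlap widely, with Rplp1 and Rpl12 at the top of the large subunit and Rps27, Rps27a and Rps27l at the bottom of the small one.

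In the large subunit, the 2 highest log2 fold changes belonged to genes of the stalk, the flexible arm that recruits elongation factors to the ribosome. Rplp1 encodes an acidic protein of this arm (chromosome 9, 61913284 to 61914542). It stood at 451, 441 and 441 CPM in PBS and at 590.4, 608 and 717 in DOX. All DOX libraries lay above all PBS libraries, which were close to each other. Its log2 fold change was 0.52 (SE 0.12, 95% interval 0.25 to 0.80), or 1.44-fold, and the edgeR quasi-likelihood adjusted p of 0.259 ranged from 0.0024 with DESeq2 to 0.627 without PBS replicate 1 over all alternatives. Rpl12, which forms the base of the stalk together with Rplp0, stood at 256, 249.9 and 261 CPM in PBS and 323, 313 and 415 in DOX (log2 fold change 0.45, SE 0.13, edgeR adjusted p = 0.382). Rplp0, the stalk's scaffold, stood at 669.8, 732 and 689.6 CPM in PBS and 847, 859.7 and 1023 in DOX (log2 fold change 0.38, SE 0.13, edgeR adjusted p = 0.423). Both had no overlap between groups. Rplp2, the partner of Rplp1, had no overlap either (143 to 173 CPM in PBS, 184 to 202 in DOX), but its log2 fold change of 0.26 (SE 0.11) was close to the members' median. Rpl12 was joined to the P genes as a group after the values were seen.

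Rpl39 and Rpl41, which encode 2 of the shortest ribosomal proteins, came next. Rpl39, a protein of the exit tunnel, stood at 127, 153 and 144 CPM in PBS and 168, 177 and 216 in DOX (log2 fold change 0.41, SE 0.13). Rpl41 stood at 345, 401 and 366 CPM in PBS and 445, 457 and 552 in DOX (log2 fold change 0.39, SE 0.13). Both lay wholly above PBS in DOX and neither passed (edgeR adjusted p = 0.400 and 0.423). Rpl14 followed with 0.36 (SE 0.12). At the other end were Rpl11 (0.15, SE 0.14), Rpl6l (0.16, SE 0.11) and Rpl22 (0.17, SE 0.13).

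Rpl5 and Rpl11 encode the proteins that travel with 5S ribosomal RNA and can bind the p53 regulator MDM2. Rpl5 stood at 383, 449.5 and 414 CPM in PBS and 442, 468 and 575 in DOX (log2 fold change 0.25, SE 0.14). Rpl11 stood at 258, 303 and 295 CPM in PBS and 267, 317 and 365 in DOX (0.15, SE 0.14). In both, DOX replicate 1 lay within the PBS range, and neither passed (edgeR adjusted p = 0.571 and 0.755). Without DOX replicate 3, Rpl11 had a log2 fold change of 0.04 and Rpl5 of 0.14. Of the p53 target list, 0 of 16 genes passed (DESeq2 called 0), and 5 had an unadjusted p under 0.05. These 5 went both ways, as Sesn1 was higher (0.50) and Aen lower (-0.48). Of the 16 genes, 12 were negative and 4 positive. The median of the list was -0.27, or -0.13 without DOX replicate 2.

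In the small subunit, Rps12 had the smallest p. It stood at 169.9, 171 and 183 CPM in PBS and 214, 217 and 269 in DOX, without overlap (log2 fold change 0.42, SE 0.12, edgeR adjusted p = 0.375). Rps24 (0.36, SE 0.15), Rps20 (0.35, SE 0.13), Rps2 (0.34, SE 0.14) and Rps4x (0.33, SE 0.11) followed with no overlap between groups. Rpsa, which doubles as a laminin receptor in its non-ribosomal role, stood at 574, 635 and 621 CPM in PBS and 692, 749 and 882 in DOX (log2 fold change 0.34, SE 0.13). Rps6, the substrate of the S6 kinases downstream of mTOR, stood at 373, 427 and 400.2 CPM in PBS and 443, 452 and 558 in DOX (log2 fold change 0.28, SE 0.13, edgeR adjusted p = 0.523). Rps29 (0.31, SE 0.11) also had no overlap, and none of these genes passed.

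The lowest values of all members were those of 3 small subunit genes with related names. Rps27 stood at 114, 156 and 136 CPM in PBS and 112, 138 and 166 in DOX (log2 fold change 0.03, SE 0.17, 95% interval -0.36 to 0.42). Its paralog Rps27l, known as a p53 target gene, stood at 126, 161 and 137 CPM in PBS and 131, 149 and 177 in DOX (0.11, SE 0.14). Both pairs of groups overlapped, and both log2 fold changes were negative without DOX replicate 3 (-0.12 and -0.01). Rps27a, which is not their paralog and encodes ubiquitin fused to a ribosomal protein, stood at 224, 239 and 243 CPM in PBS and 240.3, 234 and 266 in DOX (0.07, SE 0.10, 95% interval -0.17 to 0.31). Rps27 and Rps27l are known to encode closely related proteins, and whether the authors' counting split reads between them was not tested. For Rps27rt, a gene named after Rps27, PBS had 13.8 ± 3.20 CPM and DOX 13.5 ± 2.42 (SD over 3 libraries).

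Setting each gene against the mean of all tested members in the same library removes the scaling and the shared shift of DOX replicate 3. On this scale 66 of 78 members differed between groups by 0.1 or less (log2 of means), and the extremes were -0.24 and 0.25. Rplp1 stood 1.05, 0.82 and 0.87 above the members' mean in PBS and 1.19, 1.16 and 1.13 in DOX. Rps27 stood at -0.94, -0.67 and -0.83 in PBS and -1.21, -0.98 and -0.98 in DOX. Rps27a (0.04, -0.06 and 0.01 against -0.10, -0.22 and -0.29), Rps27l (-0.79, -0.63 and -0.82 against -0.98, -0.87 and -0.88) and Rpl11 (0.24, 0.28 and 0.29 against 0.04, 0.22 and 0.16) likewise lay lower in all DOX libraries. In all, 12 members had a higher relative level in every DOX than in every PBS library and 8 a lower one, with no test made. Of all genes tested, set against the same members' mean, 1.09% lay wholly higher and 31% wholly lower, a background shifted down because the scale is set on the members, so nothing is read from these counts. Rplp0, Rplp1, Rpl14, Rpl39, Rpl41, Rps12, Rps20 and Rpsa were among the higher ones, and Rpl11, Rpl22, Rps16, Rps27, Rps27a and Rps27l among the lower ones.

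**Figure D4:**
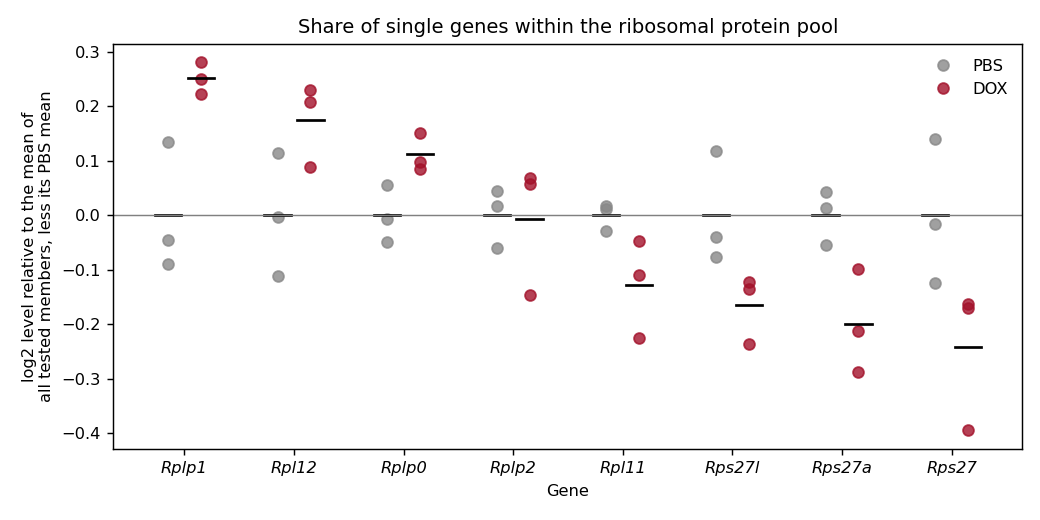
Points are single libraries (3 PBS, 3 DOX) and bars group means of the log2 level relative to the mean of all tested members in that library, with each gene's PBS mean set to 0. Rplp1 and Rplp0 lie above, and Rpl11, Rps27l, Rps27a and Rps27 below, all PBS points in DOX, while Rpl12 and Rplp2 overlap.

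Levels can be compared between genes only per length. In deposited FPKM (counts scaled by gene length and library total), Rplp1 was highest, with 994 ± 41.5 under PBS and 1299.5 ± 84.8 under DOX (SD over 3 libraries). Rpl41 followed with 863 ± 39.3 and 1028 ± 78.0. The next places were not separated. In PBS, Rps18 had 733 ± 60.5, and Rpl10 (701 ± 37.6), Rps16 (686 ± 25.6) and Rps2 (658 ± 24.0) lay within the summed SDs of it. In DOX, Rpl10 had 782 ± 18.3, Rps18 763 ± 98.7, Rps2 759.98 ± 84.5 and Rps16 725 ± 66.6. Of 76 tested members without a name ending in l, 72 had a mean of 100 FPKM or more, and the other 4 were Rps15a, Rpl21, Rpl22 and Rps20.

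The lengths behind these FPKM differ from those of the main transcripts. The length implied for Rps15a was 5136 bases, against 640 for its principal coding transcript in GENCODE M21. For Rps27l it was 2748 against 499, for Rpl22 2208 against 474, and for 11 of 79 members it was more than 2 times as long. Rps15a had a mean of 27.1 FPKM, which became 218 with the transcript length. With transcript lengths, the spread among the 76 members (SD of log2) was 0.64 instead of 0.96. By the mean over all 6 libraries, Rplp1 and Rpl41 kept the first places. Rps20 was low by both (81.4 and 80.0), as its principal transcript is annotated at 3706 bases for a coding part of 357. These lengths cancel in every comparison of DOX with PBS.

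Paralogs whose names end in l were mostly near the detection limit, apart from Rpl6l and Rps27l. Rpl3l, the muscle form of Rpl3, had 1 to 4 counts per library, while Rpl3 had 447 ± 26.0 CPM under PBS and 538 ± 50.1 under DOX (SD over 3 libraries). Rpl39l, a form known from male germ cells, had 0 to 7 counts, and 0 in all 3 DOX libraries. The processed pseudogene Rpl6l had 20.98 ± 2.42 (PBS) and 23.4 ± 1.56 CPM (DOX) beside 272 ± 14.1 and 323 ± 32.4 for Rpl6 (SD, n = 3 each), and reads of the 2 could be split by the counting. The annotation names 297 pseudogenes after 59 of the members, of which the table lists 10. Those 10 held 11.4 to 16.0 CPM in sum in PBS and 13.2 to 17.9 in DOX.

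Of 7 genes for ribosomal or related proteins under other symbols, 6 had a positive log2 fold change, 4 had no overlap, and 0 passed by edgeR or DESeq2 (5 with an unadjusted p under 0.05, median 0.31). Rps3a1 (0.37, SE 0.15) and Rack1, a scaffold on the small subunit (0.32, SE 0.12), had values near the members' median or above it. So did Rpl22l1 (0.31, SE 0.11) and Rpl36al (0.27, SE 0.10). Fau, a ubiquitin-like fusion of the small subunit, had 0.12 (SE 0.15), near Rps27a. Rpl7l1 had -0.02 (SE 0.12).

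Among other genes of translation, 17 mRNAs of elongation factors and further TOP mRNAs had a median of 0.12 with 16 positive and 5 without overlap. It was 0.07 without DOX replicate 3 and 0.19 without DOX replicate 1. Eef1b2 (0.31, SE 0.13), Eef1g (0.27, SE 0.10) and Tpt1, a TOP mRNA of high abundance (0.31, SE 0.14), were nearest the members. Initiation factors had a median of 0.03, with 20 of 28 positive; it ran from -0.01 (without PBS replicate 1) to 0.08 (without PBS replicate 3) with 1 library left out. The list for control of ribosomal protein synthesis, which holds transcription factors such as Myc beside mTOR and LARP1 genes, had a median of -0.01. Of its 20 genes, 9 were positive. Its median ran from -0.03 (without PBS replicate 3) to 0.03 (without PBS replicate 2) with 1 library left out. Factors that make ribosomes did not share the members' direction. Of 43 assembly factors 36 were negative (median -0.08), among them Nop2 (-0.41, SE 0.16) and Grwd1 (-0.27, SE 0.10). Of 15 genes of RNA polymerase I transcription 13 were negative (median -0.16), and their summed level was 264 to 273 CPM in PBS and 243 to 249 in DOX. Polr1a, the catalytic subunit, averaged 36.4 CPM under PBS and 29.4 under DOX (log2 fold change -0.31, SE 0.09, edgeR adjusted p = 0.369). Of 10 snoRNA host genes 9 were negative (median -0.21). The summed level of the assembly factors overlapped between groups (1430.7 to 1609.7 CPM in PBS, 1418.5 to 1446.6 in DOX). So did that of the host genes (130.7 to 163.7 CPM in PBS, 109.7 to 144.0 in DOX). With 1 library left out, the assembly factor median was -0.04 (without PBS replicate 3) to -0.13 (without PBS replicate 2). That of the polymerase I genes was -0.09 without PBS replicate 3 and -0.10 without PBS replicate 2, and that of the host genes -0.11 without DOX replicate 1. By library size only, which lowers all genes, the 3 medians were -0.21, -0.30 and -0.34. None of these genes passed by edgeR or DESeq2, and 2 of the elongation and TOP genes, 2 assembly factors, 2 polymerase I genes and 1 host gene had an unadjusted p under 0.05.

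Genes for 2 other sets of small, abundant machines were compared. Mitochondrial ribosomal proteins, tested for 78 genes, had a median of 0.05 with 52 positive, 10 wholly higher and 3 wholly lower in DOX. DESeq2 called 1 of them, Mrps28, as higher. The median was -0.03 without DOX replicate 3, 0.01 without PBS replicate 1 and 0.11 without DOX replicate 1. Nuclear genes of the respiratory chain had a median of 0.17 with 50 of 51 positive, but 2 wholly higher in DOX. The respiratory chain median was 0.02 without DOX replicate 3, 0.09 without PBS replicate 1 and 0.29 without DOX replicate 1. By library size only, the medians of the elongation, respiratory chain and mitochondrial ribosomal lists were -0.01, 0.03 and -0.08.

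**Figure D5:**
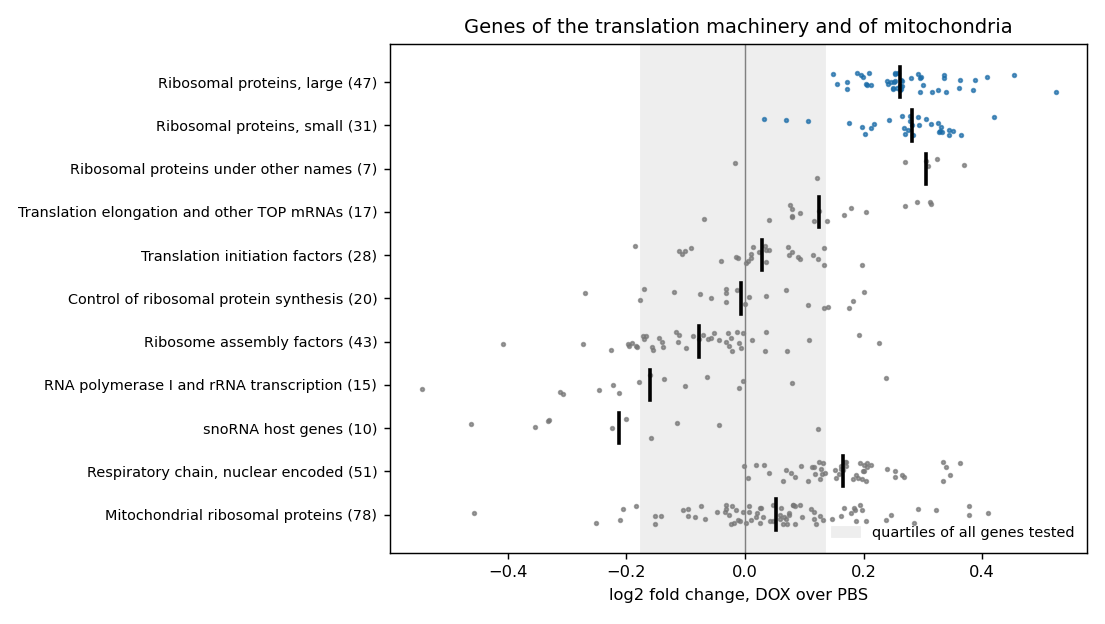
Points are log2 fold changes (DOX over PBS) of tested genes, with the number in brackets and a black bar at the median; the grey band spans the quartiles of all 13725 genes tested. The medians of both ribosomal protein subunits, of the ribosomal proteins under other names (0.31) and of the respiratory chain (0.17) lie right of the band. Rps27, Rps27a and Rps27l lie inside the band, and the assembly, polymerase I and snoRNA host lists have medians below 0.

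Gene length, level and cell markers also moved between the groups. Among the other genes tested, the median log2 fold change was 0.09 for implied lengths under 500 bases and 0.09 for 500 to 1000 (63.6% positive). The median was 0.04 for 1000 to 2000 bases and -0.07 over 8000. It was 0.09 for genes of 100 to 1000 CPM, of which 19.1% lay wholly higher in DOX, and -0.07 for genes of 1 to 10 CPM. For the 222 other genes shorter than 1500 bases with a mean of at least 100 CPM, the median was 0.13, and 20.3% lay wholly higher. Summed CPM of the 14 listed hepatocyte markers was 86733 to 102461 in PBS and 104922 to 160534 in DOX, with 8 of 14 positive and a median log2 fold change of 0.05. Without Alb, the sum of the other 13 was 39861 to 44727 in PBS and 43730 to 47039 in DOX, and the groups overlapped. The 12 cholangiocyte markers held 290.1 to 414 CPM in PBS and 143 to 278 in DOX (11 of 11 tested negative). Their median was -0.59, and -0.35 without PBS replicate 2 or -0.37 without DOX replicate 3. The 12 endothelial markers held 64.7 CPM in PBS replicate 2, 182 and 187 in the other PBS libraries and 153 to 282 in DOX. Of these, 12 of 12 were positive, with a median of 0.78, or 0.38 without PBS replicate 2. Of these 3 lists DESeq2 called Alb higher and Tspan8 lower, and edgeR called 0, with 9 genes at an unadjusted p under 0.05. Stellate cell, macrophage, lymphocyte, erythroid and cell cycle markers overlapped between groups in their sums, as did neutrophil markers (16.3 to 34.99 against 14.7 to 22.2 CPM), and DESeq2 called none of them. By gene, 12 of 12 stellate cell markers were positive (median 0.32) and 8 of 8 tested neutrophil markers negative (median -0.38). With 1 library left out, these medians ran from 0.14 to 0.55 and from -0.59 to -0.11. Of those tested, 7 of 12 macrophage, 5 of 7 lymphocyte, 5 of 5 erythroid and 8 of 14 cell cycle markers were positive. No marker was at 0 in all libraries. The part of length, level and cell makeup in the members' difference was not tested.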

How the data were processed

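The authors deposited whole-number read counts per gene symbol and FPKM values for the same 6 libraries, named in the column headers by the sample titles. Per the submitters' processing notes the builds are GRCm38 and mm10; the aligner, counter and strand setting are unstated there (not given in the sources used here). Per the labels' protocols, total RNA was made into SMARTER mRNA-Seq libraries. The deposited FPKM are counts divided by 1 length per gene and by the library total (18913 of 18913 genes checked, relative tolerance 1e-05). Counts of replicates differed beyond counting error (chi-square over degrees of freedom 44.8 to 141.9).

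The count test was edgeR 4.0.16 under R 4.3.3 (filterByExpr, TMM, quasi-likelihood, DOX against PBS, no block) over 13725 genes, with Benjamini-Hochberg adjustment at 0.05. CPM are TMM-scaled, and log2 CPM use a prior count of 2. The procedure was checked on simulated counts, with changes larger than those of the members. That check does not cover differences as small as theirs, or a shift that many genes share within a library. Alternatives were other scalings and filters, DESeq2 1.42.0, limma-voom (limma 3.58.1), limma on log2 FPKM (pseudocounts 1 and 0.1), a replicate block, and leaving out each library. Named genes are, per subunit, those with the 5 smallest p, the 3 highest and 3 lowest fold changes and the 3 highest FPKM, plus paralogs and fixed names, and up to 4 of smallest p per other list. The members and lists were chosen with earlier results of these data known. Of 19 fixed lists, that of 13 mitochondrial genome genes had no match and was not analysed here. Some genes that this rule names are not reported here.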

Additional observations from a re-analysis of the deposited data

How the results depend on the processing

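The members' median log2 fold change was positive in every setting run, 0.13 to 0.29 over the scalings, filters and tools, and 0.17 (without DOX replicate 3) to 0.34 (without DOX replicate 1) when 1 library was left out. Scaling with the members or Alb left out, added after seeing the data, gave 0.27 for both. The difference between subunit medians was -0.03 to -0.01 and that between means -0.00 to 0.01 with 1 library left out. The difference in the share of counts was 0.14 to 0.34 percentage points. Members with no overlap numbered 22 by library size only and on FPKM (both pseudocounts), and 52 to 72 with 1 library left out, a count that leaving out a library can hardly lower. The share of all genes without overlap was not computed for these settings. Among all genes, DESeq2 called 176 (128 higher, 48 lower), of which 1 is a member and 3 are on the other lists; no filter called 61 (45 and 16), limma-voom 2 (1 higher) and library size only 2 lower beside 3 higher. With 1 library left out, 3 to 4 genes were called, 3 to 4 higher and 0 to 1 lower. The replicate block gave 21 (17 higher, 4 lower) and 0 members. Deviations of same-numbered libraries correlated at 0.19, 0.13 and 0.01, and those of differently numbered ones at -0.18 to 0.06. These values do not settle whether the numbers mark pairs. The numbers have no stated meaning, so the main test did not take them as pairs. Of 29 named members tested, 3 changed sign in some setting (Rps27, Rps27a, Rps27l), and 1 (Rplp1) was called in 1 setting, DESeq2. The list of lymphocyte markers gave no value with a filter of 1 CPM. For all of these, the cause was not tested. Members had at least 761 counts in each library when tested, so depth limits only Rpl3l, Rpl32l and Rpl39l.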
